A study of Mus musculus with 9 samples.

Results

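Nucleolar ribosome biogenesis factors were followed across 3 treatments of MC38 cells, a mouse colon carcinoma line. They were chosen by gene symbol, with earlier results of these data known. The rule took the genes named Nop, Nol, Utp or Rrp with a number plus a fixed set of other factors (Rrs1, Imp3, Imp4, Ebna1bp2, Bop1, Pes1, Wdr12, Ftsj3, Gar1, Nhp2, Dkc1, Fbl, Ncl, Npm1, Nip7, Mrto4, Gnl3, Bysl, Tsr1, Nob1, Ltv1 and Rrn3). This gave 59 genes of the 16509 in the table, and all 59 passed the filter on low counts that kept 11949 genes for testing. The study developed a copper and cystine nanodrug to kill tumour cells and to sensitize tumours to immune checkpoint therapy. RNA sequencing of treated cells was among its assays. Ctrl cells were labelled as treated with DMSO, although the study's text describes a saline vehicle. Cu-Cys cells received copper with cystine. Cadict cells received the full nanodrug, in which the same 2 components are joined by glucose oxidase and by a peptide that binds the EGF receptor. Each group had 3 libraries of polyA-selected RNA from this single line, and no dose or time was given for them. Nothing in the labels says that replicates came from separate cultures. The study's text states that in vitro work was repeated independently at least 3 times, and gives n = 3 for the sequencing, as biological replicates. It does not describe the cultures behind these libraries, so the p-values measure only the spread between them.

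Ribosomes are built in the nucleolus. RNA polymerase I (Pol I), recruited by Rrn3, makes a long precursor RNA, which small nucleolar ribonucleoproteins (snoRNPs) of the box C/D and box H/ACA classes modify and help to fold. Assembly factors then cut and package it into the 40S and 60S subunits, each factor acting at its own stage, and some of them form stable complexes. The pathway uses much of a growing cell's energy, is raised in many tumours and responds to nutrients and stress.

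The libraries held 17905771 to 18293056 expected counts each. The tumour line was checked against markers: the epithelial genes Epcam, Krt8, Krt18 and Cldn7 had at most 4 counts in any Ctrl library, Cdh1 had 99 to 120 and Krt19 19 to 33, whereas the fibroblast-associated Pdgfrb had 1717 to 1862. These levels moved with treatment. The summed counts of the 6 epithelial markers were 122 to 157 in Ctrl, 84 to 95 in Cu-Cys and 282 to 304 in Cadict libraries, where Krt19 had 119 to 131. Those of 3 fibroblast markers (Pdgfrb, Col1a1 and Dcn) were 2149 to 2346, 1417 to 1488 and 587 to 657, and those of 3 endothelial markers were at most 43 in any library. The part of these marker changes in the results was not tested. The leukocyte markers Ptprc, Itgam and Lyz2 had at most 10 counts in any library. No libraries were duplicates, but Cadict replicate 2 stood apart from the other Cadict libraries, with a chi-square per gene of 14.7 and 23.1 against 3.63 between replicates 1 and 3. RNA composition also differed: the 20 genes with most counts held 15.1% to 15.4% of a Cadict library and 7.13% to 7.24% of a Ctrl library. The TMM factors, which scale for composition over the tested genes and not these 20 alone, were 0.640 to 0.665 in Cadict and 1.26 to 1.27 in Ctrl. How much of that gap the 20 genes account for was not tested. Unless another scale is named, levels are given as CPM, which are counts scaled to a common library total with the TMM correction. Differences are given as log2 fold changes ± SE on that scale. Scaling by library totals alone lowers the median of all genes by 0.95 on the log2 scale in Cadict against Ctrl, and a direction that this turns is named where it occurs. In bulk RNA, fewer transcripts per cell and fewer cells that hold them cannot be told apart.

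The factors were well expressed in Ctrl cells. Their median level per transcript length was 66.1 TPM, against 21.9 TPM for all tested genes, and 51 of the 59 lay above that second value. Npm1 (nucleophosmin, an abundant nucleolar chaperone) stood first at 3031 ± 61.7 TPM (SD, n = 3), followed by Ncl (nucleolin, an abundant RNA-binding protein of the nucleolus) at 845 ± 20.3 TPM. The box C/D proteins came next, with Nop56 at 374 ± 10.9, Fbl at 362 ± 14.8 and Nop58 at 321 ± 4.71 TPM. The Nop56 and Fbl libraries overlapped, so their order was not resolved, while the Nop58 libraries all lay lower. At the other end, Nol3 (1.25 ± 0.318 TPM), Nol4l (0.357 ± 0.0839 TPM) and Nol4 (0.247 ± 0.0153 TPM) matched only by name. Nol3 is an inhibitor of apoptosis, and none of these 3 is known as a ribosome assembly factor.

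As a share of all counts, the 59 factors made up 0.880% ± 0.00387 of Ctrl libraries, 1.22% ± 0.0324 of Cu-Cys libraries and 1.39% ± 0.0413 of Cadict libraries (SD, n = 3). These shares are on the scale of library totals, with no correction for composition, and the ranges of the 3 groups did not overlap. Ncl and Npm1 alone held 0.368%, 0.548% and 0.641%, and the other factors together held 0.511%, 0.669% and 0.752%, in the same order of groups.

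**Figure D1:**
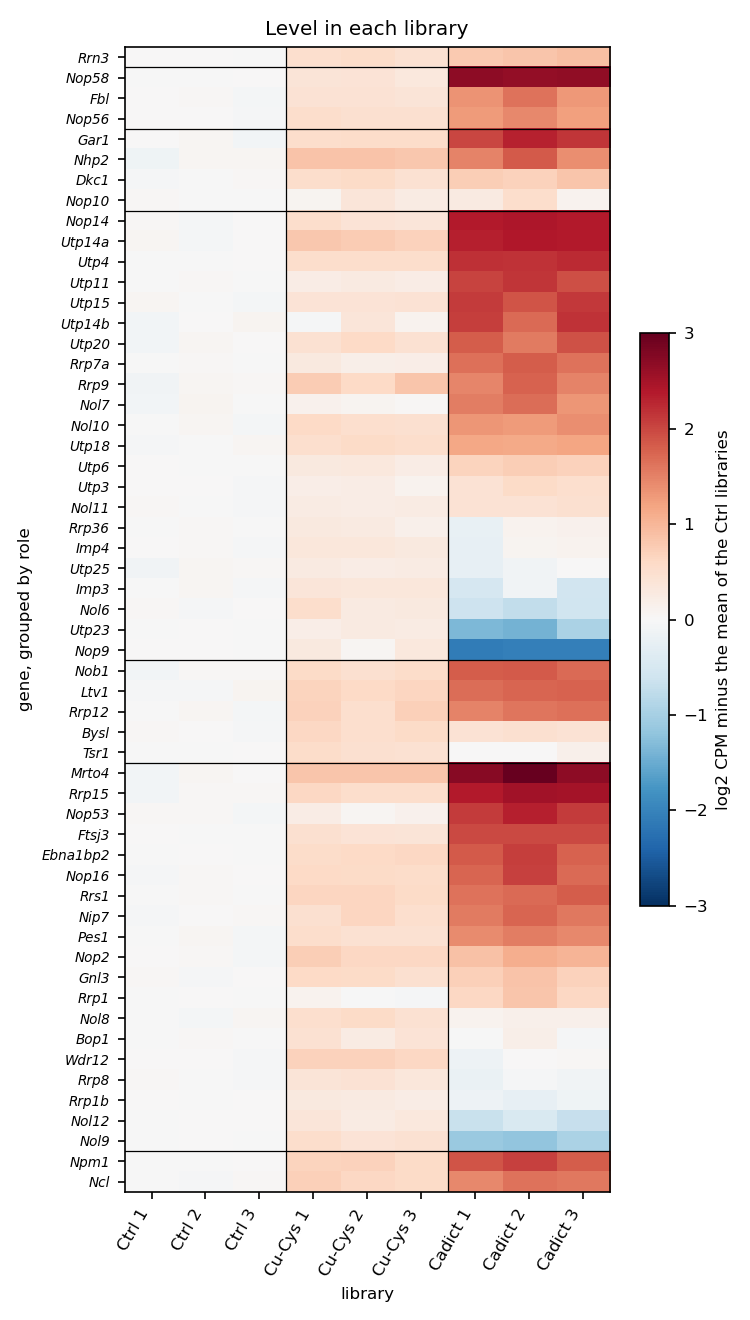
Level of each factor in each library, as log2 CPM (TMM scaling) minus the mean of the 3 Ctrl libraries; rows are genes grouped by role and columns are libraries, and the 3 genes matched only by name are left out for their low counts. Cu-Cys libraries are pale red in almost every row, whereas Cadict libraries hold deep red rows (Nop58, Mrto4, Rrp15) beside blue ones (Nop9, Utp23, Nol9).

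Promoters of the factors were searched for 4 short motifs on both strands, because many of these genes moved together. RefSeq windows on GRCm38.p6, from 250 bases before to 50 after a start site, were matched to 47 of the 59 factors by gene identifier. The E-box CACGTG, the core that Myc, Max and other basic helix-loop-helix proteins bind, was present for 13 of the 47 (27.7%), against 11.8% of the 9550 tested genes with a window and 8.09% of all 27025 genes with one. The GC box GGGCGG was present for 34 (72.3%, against 69.6% of tested genes), ATGGCGGC, a sequence that YY1 can bind, for 5 (10.6%, against 5.99%) and the NRF1 palindrome for 0 (against 2.43%). An E-box was present for 8 of the 26 matched factors called higher in Cadict and for 5 of the other 21. A match is a description of the letters and not of binding. The 8 E-boxes that lie wholly upstream of a start site with 12 bases on each side are shown for the 7 factors that hold them, 5′ to 3′ on the gene's strand with the E-box in capitals:
Imp4 (chr1:34439696-34439725, + strand): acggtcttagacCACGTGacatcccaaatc
Nol11 (chr11:107189407-107189436, - strand): cttgagcgttcgCACGTGgtctagactcca
Nop2 (chr6:125131811-125131840, + strand): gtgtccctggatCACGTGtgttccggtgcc
Rrn3, far (chr16:13780472-13780501, + strand): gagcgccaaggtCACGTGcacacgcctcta
Rrn3, near (chr16:13780639-13780668, + strand): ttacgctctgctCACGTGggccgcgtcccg
Rrp7a (chr15:83122992-83123021, - strand): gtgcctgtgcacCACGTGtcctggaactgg
Utp14b (chr1:78658365-78658394, + strand): cgcgggcgcgggCACGTGggtggggtcgtc
Utp18 (chr11:93885769-93885798, - strand): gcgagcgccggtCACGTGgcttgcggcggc
The middle of these E-boxes lies between 17 bases (Utp18) and 212 bases (Rrn3, far) before the start site. Rrn3 alone holds a pair, and its near copy is 45 bases before the start.

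Cu-Cys against Ctrl asked what copper and cystine change without glucose oxidase and the targeting peptide. Nearly every factor was modestly higher: 52 of 59 rose at an adjusted p of at most 0.05 and 0 fell, in a comparison where 22.6% of all tested genes rose and 22.4% fell. At an unadjusted p of 0.05 the edgeR counts were 52 higher and 1 lower, and DESeq2's Wald test also gave 52 rising and 0 falling at an adjusted p of 0.05. The median log2 fold change was 0.46 for the factors and 0.01 for all tested genes, and 56 of the 59 values were above 0. No factor reached the study's threshold of a 2-fold change and an adjusted p of at most 0.001, which 0.167% of tested genes passed upward and 1.47% downward, and DESeq2 called 0 as well. Library totals left 55 of 59 values above 0 and a median of 0.39.

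The largest rises with Cu-Cys were found in several stages of the pathway. Nhp2, a box H/ACA core protein, went from 40.6, 46.1 and 45.7 CPM in the Ctrl libraries to 80.0, 79.4 and 77.8 CPM, a log2 fold change of 0.84 ± 0.09. Mrto4, a 60S factor related to the stalk protein P0, went from 55.8, 61.2 and 59.3 to 104.5, 103.9 and 105 CPM (0.83 ± 0.08). Both pairs of groups were far apart beside their spread. Utp14a (0.75 ± 0.06) and Rrp9, a U3 snoRNP protein (0.73 ± 0.09), act in early 40S assembly, and Wdr12 (0.67 ± 0.06) in 60S assembly. The edgeR adjusted p of these 5 lay between 1.85e-07 (Utp14a) and 1.09e-05 (Rrp9).

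The core nucleolar proteins rose by similar amounts with Cu-Cys. Ncl had 1395, 1366 and 1437 CPM in Ctrl and 2314, 2154 and 2080 CPM in Cu-Cys libraries (0.64 ± 0.06), and Npm1 had 1507, 1487 and 1532 CPM against 2385, 2436 and 2259 CPM (0.65 ± 0.06). The groups of both genes were separate. Rrn3, which brings Pol I to its promoter, rose by 0.50 ± 0.05, the box C/D proteins Nop56, Fbl and Nop58 by 0.49 ± 0.06, 0.41 ± 0.07 and 0.38 ± 0.05, and Dkc1, the pseudouridine synthase of box H/ACA snoRNPs, by 0.53 ± 0.05. Pes1 and Bop1, which form a 60S complex with Wdr12, rose by 0.48 ± 0.05 and 0.38 ± 0.06. The 7 factors that did not pass were Nol7 (0.07 ± 0.08), Utp14b (0.16 ± 0.13), Nop53 (0.13 ± 0.07), Rrp1 (0.03 ± 0.06) and the genes matched only by name, Nol3 (-0.55 ± 0.31), Nol4 (-0.01 ± 0.41) and Nol4l (-0.74 ± 0.29).

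Cadict against Ctrl asked what the full nanodrug changes. The values of the factors were far more spread than with Cu-Cys. At the study's threshold, 32 of 59 were called higher, against 20.7% of all tested genes, and 3 were called lower, against 27.1%. At an adjusted p of at most 0.05, 42 rose (background 40.6%), 9 fell (background 47.1%) and 8 did not pass. The median log2 fold change was 1.32 for the factors and -0.13 for all tested genes, with a range from -2.09 (Nol4) to 2.81 (Mrto4) and an SD of 1.16, whereas the SD with Cu-Cys was 0.28. The lower end rests on Nol4, which had 0, 0 and 4 counts in Cadict libraries and whose value ran from -6.34 to -1.53 as 1 library was left out. The next lowest was Nop9 at -2.07. With library totals the median was 0.37 for the factors and -1.08 for all tested genes. On that scale 32 of 59 values were above 0, 12 factors were called higher (background 6.93%) and 11 lower (background 51.5%), so the size and, for factors that rose by less than about 0.95, the direction depend on the scaling. Without Cadict replicate 2, 31 were called higher and 3 lower. Both comparisons with Ctrl share the 3 Ctrl libraries.

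**Figure D2:**
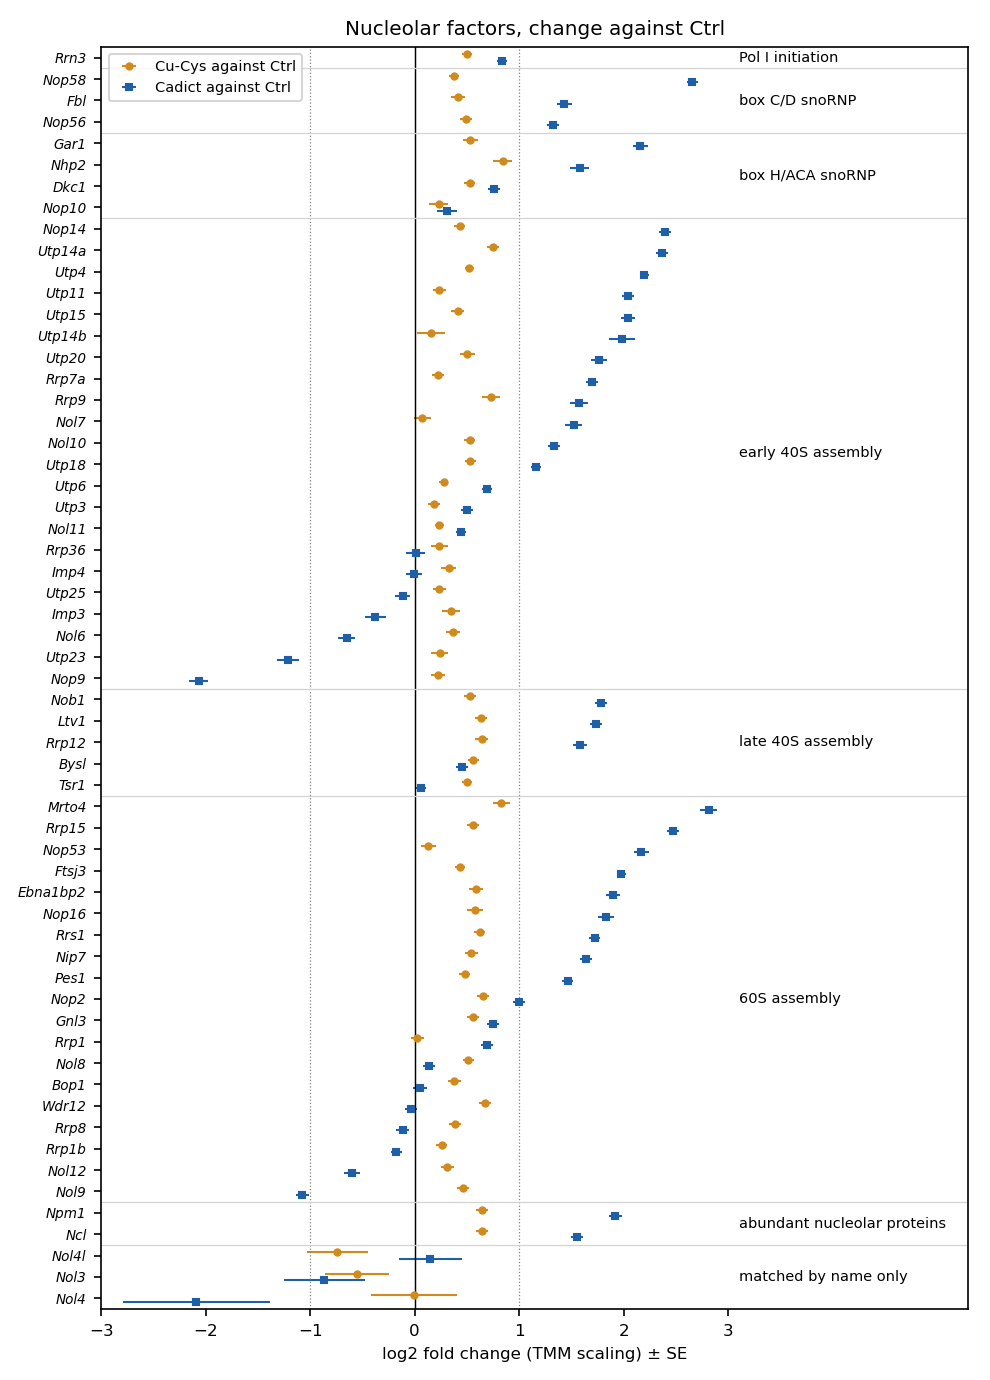
Log2 fold change ± SE (edgeR, TMM scaling, n = 3 libraries a group) of each factor in Cu-Cys (circles) and Cadict (squares) against Ctrl, grouped by role; dotted lines mark a 2-fold change. Cu-Cys values lie close together with a median of 0.46, while Cadict values run from -2.09 to 2.81; with library totals in place of TMM, Cadict values shift down by about 0.95, which turns those of 14 factors between 0 and 0.84 below 0.

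Pol I initiation was represented by Rrn3 alone. It stood at 75.0, 74.5 and 74.0 CPM in Ctrl and at 127, 132 and 140.1 CPM in Cadict libraries, a log2 fold change of 0.84 ± 0.05 (adjusted p = 2.71e-10) under TMM scaling that became -0.12 with library totals. The groups did not overlap on the CPM scale, and the direction is set by the scaling.

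All 3 box C/D proteins rose, by very different amounts. Nop58 went from 249, 248 and 253 CPM in Ctrl to 1607, 1548 and 1584 CPM in Cadict libraries, 6.31-fold higher (2.66 ± 0.05, adjusted p = 3.81e-16). Its partner Nop56 went from 282, 283 and 275 to 681, 763 and 657 CPM (1.32 ± 0.06) and the methyltransferase Fbl from 142, 146 and 137 to 361, 437 and 350.1 CPM (1.43 ± 0.07). The groups were separate for each gene, and the rises held with library totals (1.71, 0.37 and 0.48). On the deposited TPM scale, which has no correction for composition, Nop58 went from 321 to 821 TPM while Nop56 stood at 374 and 380 TPM. The ratio of Nop58 to Nop56 counts, which does not depend on scaling, was 0.881, 0.877 and 0.923 in Ctrl, 0.808, 0.864 and 0.804 in Cu-Cys and 2.36, 2.03 and 2.41 in Cadict libraries. Its mean was 2.53 times as high in Cadict as in Ctrl, while the ratio of Fbl to Nop56 moved only from 0.506 ± 0.00932 to 0.545 ± 0.0234 (n = 3).

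Among box H/ACA proteins, Gar1 went from 42.8, 44.1 and 39.7 CPM in Ctrl to 169.6, 210.0 and 186 CPM with Cadict (2.16 ± 0.07, adjusted p = 1.96e-13). Nhp2 rose to 132 ± 21.8 CPM (1.58 ± 0.09). Both were also higher with library totals (1.20 and 0.62). Dkc1 rose by 0.76 ± 0.05 and Nop10 by 0.31 ± 0.09 under TMM scaling, and both were lower with library totals (-0.19 and -0.65). The ratio of Gar1 to Nop10 counts was 1.15, 1.24 and 1.12 in Ctrl, 1.58, 1.33 and 1.44 in Cu-Cys and 3.88, 4.07 and 4.82 in Cadict libraries. The ratio of Gar1 to Dkc1 was 0.365 ± 0.0287 in Ctrl, 0.367 ± 0.0168 in Cu-Cys and 0.966 ± 0.139 in Cadict.

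Early 40S assembly, the work of the small subunit processome, held 22 of the factors, of which 12 were called higher (background 20.7%) and 2 lower (background 27.1%). Nop14 went from 88.8, 83.2 and 86.3 CPM in Ctrl to 449, 459 and 450.5 CPM with Cadict (2.40 ± 0.05), and Utp14a, an activator of the helicase Dhx37, from 30.6, 28.4 and 29.8 to 149.6, 155 and 153 CPM (2.37 ± 0.06). Utp4, a UTP-A subunit, went from 189.5, 189.9 and 190.7 to 868, 855 and 895 CPM (2.20 ± 0.05). For all 3 the lowest Cadict library was far above the highest Ctrl library. Utp11 (2.04 ± 0.06), the UTP-A subunit Utp15 (2.04 ± 0.06) and Utp14b (1.99 ± 0.12) came next, and then the scaffold protein Utp20 (1.77 ± 0.08), Rrp7a (1.70 ± 0.06), Rrp9 (1.57 ± 0.09), Nol7 (1.52 ± 0.08), Nol10 (1.33 ± 0.05) and the UTP-B subunit Utp18 (1.16 ± 0.05). These 12 were also above 0 with library totals.

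The remaining early 40S factors changed less or fell. Utp6 (0.70 ± 0.05), Utp3 (0.50 ± 0.06) and Nol11 (0.44 ± 0.05) rose under TMM scaling and were lower with library totals (-0.26, -0.45 and -0.51). Rrp36 (0.01 ± 0.09), Imp4 (-0.01 ± 0.08) and Utp25 (-0.11 ± 0.07) did not pass, but with library totals all 3 passed downward (-0.94, -0.96 and -1.07). Utp25 also passed downward with a stricter filter on low counts or none (-0.18 and -0.19). Imp3, the U3 snoRNP partner of Imp4, fell by 0.38 on the log2 scale (SE 0.10) and Nol6, also a processome subunit, fell by 0.65 (SE 0.08). Nop9, an RNA-binding protein with Pumilio repeats, went from 41.0, 40.9 and 40.1 CPM in Ctrl to 9.52, 9.76 and 9.82 CPM in Cadict libraries, 4.19-fold lower (-2.07 ± 0.09, adjusted p = 3.65e-12). Utp23 went from 18.3, 18.4 and 18.1 to 7.22, 6.89 and 9.49 CPM (-1.21 ± 0.10). In both genes every Cadict library lay below every Ctrl library, and both falls were larger with library totals (-3.02 and -2.16).

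Late 40S factors, which finish the subunit in nucleolus, nucleus and cytoplasm, rose in 4 of 5 cases under TMM scaling (background 40.6%). With library totals 3 of the 5 lay above 0. Nob1, the endonuclease that makes the mature end of 18S ribosomal RNA, went from 72.0, 77.3 and 77.7 CPM to 268, 271 and 245 CPM (1.79 ± 0.06), Ltv1 rose by 1.74 ± 0.06 and Rrp12 by 1.58 ± 0.06. Bysl rose by 0.45 ± 0.06 under TMM scaling and was lower with library totals (-0.50). Tsr1, a GTPase-like protein of the same late particles, stood at 135, 134.6 and 136 CPM in Ctrl and at 137, 136 and 149.8 CPM in Cadict libraries (0.06 ± 0.05, adjusted p = 0.283). It passed upward with size factors (0.18) and downward with library totals (-0.89). The Ctrl and Cadict libraries of Tsr1 overlapped. The ratio of Nob1 to Tsr1 counts was 0.533, 0.574 and 0.571 in Ctrl, 0.569, 0.555 and 0.592 in Cu-Cys and 1.95, 1.996 and 1.63 in Cadict libraries.

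Of the 19 factors of 60S assembly, 10 were called higher (background 20.7%) and 1 lower (background 27.1%). Mrto4 rose most of all 59, to 386, 478 and 375 CPM from 55.8, 61.2 and 59.3 CPM, 7.03-fold (2.81 ± 0.08, adjusted p = 3.63e-14). Rrp15 went from 36.8, 39.8 and 39.9 to 203, 223 and 220.1 CPM (2.47 ± 0.06), and Nop53, which recruits the RNA exosome, from 66.1, 66.2 and 61.6 to 275, 323 and 276 CPM (2.17 ± 0.07). All of these Cadict libraries lay above all Ctrl libraries. Ftsj3, an RNA methyltransferase, rose by 1.98 ± 0.05, Ebna1bp2 by 1.90 ± 0.07, Nop16 by 1.83 ± 0.08, Rrs1, which loads the 5S ribonucleoprotein, by 1.72 ± 0.05, and Nip7 by 1.64 ± 0.06. Nop2, an RNA methyltransferase, sat at the threshold with 1.00 ± 0.06, and with library totals its value of 0.05 no longer passed (adjusted p = 0.431).

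The other 60S factors were split. Gnl3 (nucleostemin, 0.75 ± 0.06), Rrp1 (0.69 ± 0.06) and Nol8 (0.14 ± 0.06) rose under TMM scaling and were lower with library totals (-0.21, -0.26 and -0.82). The rise of Nol8 was marginal (edgeR adjusted p = 0.044). It no longer passed with a replicate block (adjusted p = 0.0704), with a stricter filter on low counts or none (0.07 and 0.06) or in 7 of the 9 fits that left out 1 library. Rrp8, an RNA methyltransferase, did not pass (-0.11 ± 0.06), but passed downward with library totals (-1.07). It also passed downward with a stricter filter on low counts or none (-0.18 and -0.19). Rrp1b, the paralog of Rrp1, fell by 0.18 (SE 0.05) under TMM scaling, which no longer passed with size factors (-0.06, adjusted p = 0.338), and Nol12 fell by 0.60 (SE 0.08). Nol9, a polynucleotide kinase needed to process the 60S precursor RNA, went from 97.1, 98.6 and 96.4 CPM to 45.4, 43.2 and 50.1 CPM, 2.11-fold lower (-1.07 ± 0.06, adjusted p = 9.62e-11), with no overlap between the groups.

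Pes1, Bop1 and Wdr12 form a stable complex in 60S assembly, and all 3 transcripts rose with Cu-Cys. With Cadict Pes1 rose and the others did not pass. Bop1 passed upward with size factors (0.17, adjusted p = 0.0247), and both Bop1 and Wdr12 passed downward with library totals (-0.90 and -0.99). Pes1 had 119, 125 and 115 CPM in Ctrl and 321, 349 and 323 CPM with Cadict (1.47 ± 0.05). Bop1 had 65.4, 67.7 and 65.2 CPM in Ctrl and 66.0, 75.0 and 64.9 CPM with Cadict (0.05 ± 0.07), and Wdr12 58.1, 58.1 and 56.4 against 51.7, 57.8 and 59.3 CPM (-0.03 ± 0.06). The groups overlapped for Bop1 and Wdr12 and were separate for Pes1. The ratio of Pes1 to Bop1 counts was 1.81, 1.84 and 1.77 in Ctrl, 1.90, 2.07 and 1.86 in Cu-Cys and 4.86, 4.65 and 4.97 in Cadict libraries, and that of Pes1 to Wdr12 was 2.08 ± 0.0603, 1.82 ± 0.0465 and 5.90 ± 0.405 (n = 3). The ratio of Bop1 to Wdr12 was 1.15 ± 0.0213 in Ctrl and 1.22 ± 0.112 in Cadict libraries, which overlapped.

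**Figure D3:**
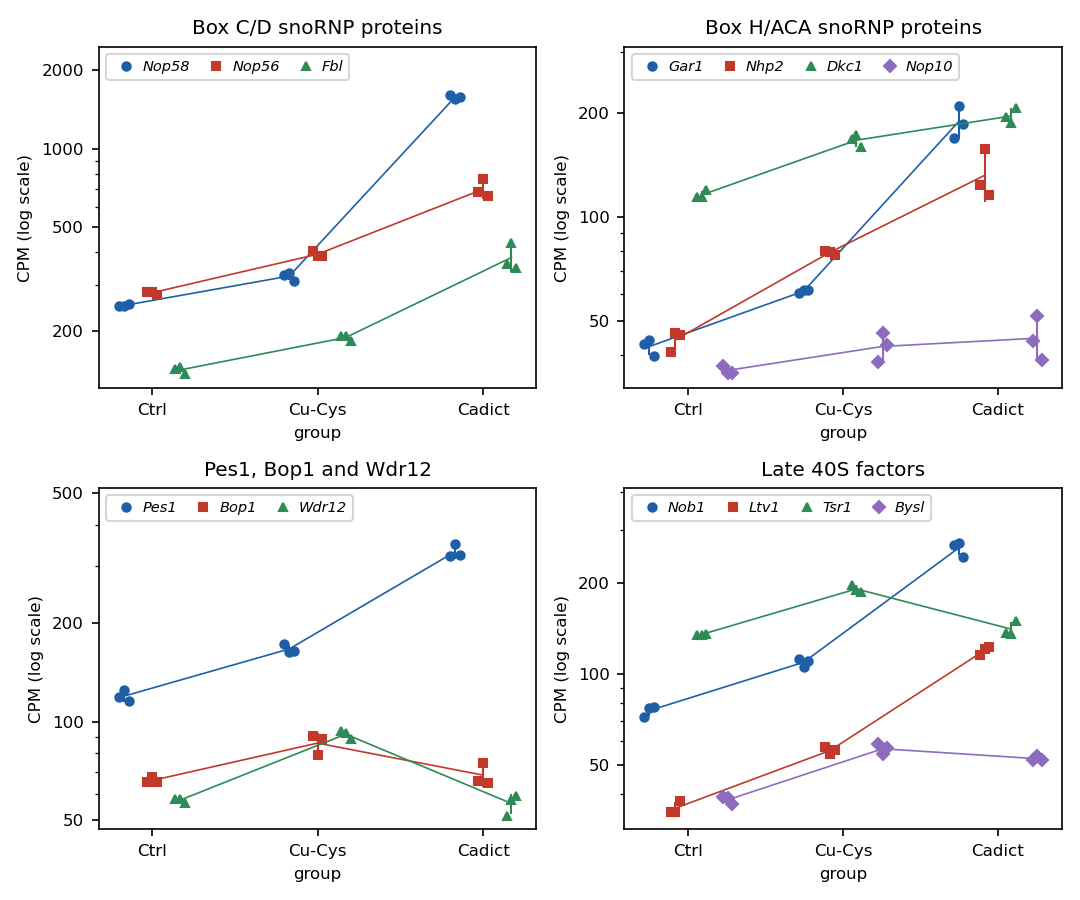
CPM (TMM scaling, log axis) of subunits of 4 complexes or stages in each library, with symbols for libraries, lines joining group means and bars for ± SD (n = 3). In Cadict libraries Nop58, at 1548 to 1607 CPM, parts from Nop56 and Fbl, and Pes1 from Bop1 and Wdr12. Gar1 parts from Dkc1 and Nop10, while Nhp2 also rises (log2 fold change 1.58 against 2.16 for Gar1). Nob1 parts from Tsr1 and Bysl, while Ltv1 rises with it (1.74 against 1.79 for Nob1). Ratios between genes do not depend on the scaling, whereas the directions of Bop1, Tsr1, Dkc1, Nop10 and Bysl against Ctrl turn with library totals.

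These count ratios were compared between Cadict and Ctrl libraries by a two-sided exact permutation test, whose smallest p with 3 against 3 libraries is 0.1, so no ratio could pass 0.05. The p was 0.1 for Nop58 to Nop56, Fbl to Nop56, Gar1 to Nop10, Gar1 to Dkc1, Nob1 to Tsr1, Pes1 to Bop1 and Pes1 to Wdr12, and 0.4 for Bop1 to Wdr12. Ratios of Nhp2 to Nop10, Rrp1 to Rrp1b, Imp4 to Imp3, Npm1 to Ncl and Utp14a to Utp14b were also computed. Each was higher in Cadict than in Ctrl (1.29 to 2.41 times) with a p of 0.1 in the same test, so this p does not single out any pair. The pairs were picked after the values of their genes were seen.

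Both abundant nucleolar proteins were called higher with Cadict. Ncl reached 3784, 4337 and 4188 CPM (1.55 ± 0.06) and Npm1 5566, 6249 and 5314 CPM (1.92 ± 0.06, adjusted p = 1.03e-13). The groups were separate, and library totals kept both above 0 (0.60 and 0.97). Of the genes matched only by name, Nol3 had 20.4 to 39.5 counts in Ctrl and 3.05 to 11.3 in Cadict libraries (-0.87 ± 0.39, adjusted p = 0.0464, lost with size factors at 0.0823), and its CPM values overlapped between the groups. Nol4 had 10 to 13 counts in Ctrl and 0, 0 and 4 in Cadict libraries, where a count of 0 allows up to 3 (-2.09 ± 0.70, adjusted p = 0.0116); without Cadict replicate 1 its value was -1.53 and did not pass (adjusted p = 0.0574), and without replicate 3, which leaves both Cadict libraries at 0, it was -6.34. Nol4l did not pass (0.15 ± 0.30, and -0.80 with library totals, which passed downward).

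Cadict against Cu-Cys asked what glucose oxidase and the targeting peptide add. Here 23 of 59 factors were called higher (background 18.6%) and 4 lower (background 23.6%). With no limit on the fold, 40 rose at an adjusted p of at most 0.05 (background 40.3%) and 16 fell (background 45.6%). The median log2 fold change was 0.81 for the factors and -0.10 for all tested genes. With library totals the medians were -0.08 for the factors and -0.98 for all tested genes, and 5 factors were called higher (background 5.76%) and 16 lower (background 47.7%). On that scale the median factor was thus not higher in Cadict than in Cu-Cys libraries, although the summed share of the 59 factors was, at 1.39% of counts against 1.22% with no overlap of libraries. Nop58 (2.28 ± 0.05), Nop53 (2.04 ± 0.07), Mrto4 (1.98 ± 0.08), Nop14 (1.96 ± 0.05) and Rrp15 (1.91 ± 0.06) rose most. Nop9 (-2.29 ± 0.09), Nol4 (-2.08 ± 0.71), Nol9 (-1.54 ± 0.06), Utp23 (-1.45 ± 0.10) and Nol6 (-1.02 ± 0.08) fell most. The value of Nol4 rests on 0, 0 and 4 Cadict counts, ran from -6.33 to -1.53 as 1 library was left out and did not pass without Cadict replicate 1 (edgeR adjusted p = 0.0607). Wdr12 and Bop1, which had risen with Cu-Cys, were lower in Cadict than in Cu-Cys libraries by 0.70 ± 0.06 and 0.33 ± 0.07 on the log2 scale.

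The core proteins filled the range between these. Npm1 (1.27 ± 0.06) and Fbl (1.02 ± 0.07) were called higher in Cadict than in Cu-Cys libraries, and Pes1 (0.99 ± 0.05) and Ncl (0.91 ± 0.06) rose without reaching a 2-fold change. With library totals the values of Fbl, Pes1 and Ncl no longer passed (0.13, 0.10 and 0.03). Nop56 (0.83 ± 0.06), Rrn3 (0.33 ± 0.05) and Dkc1 (0.23 ± 0.05) also rose under TMM scaling and were below 0 with library totals (-0.06, -0.55 and -0.65).

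**Figure D4:**
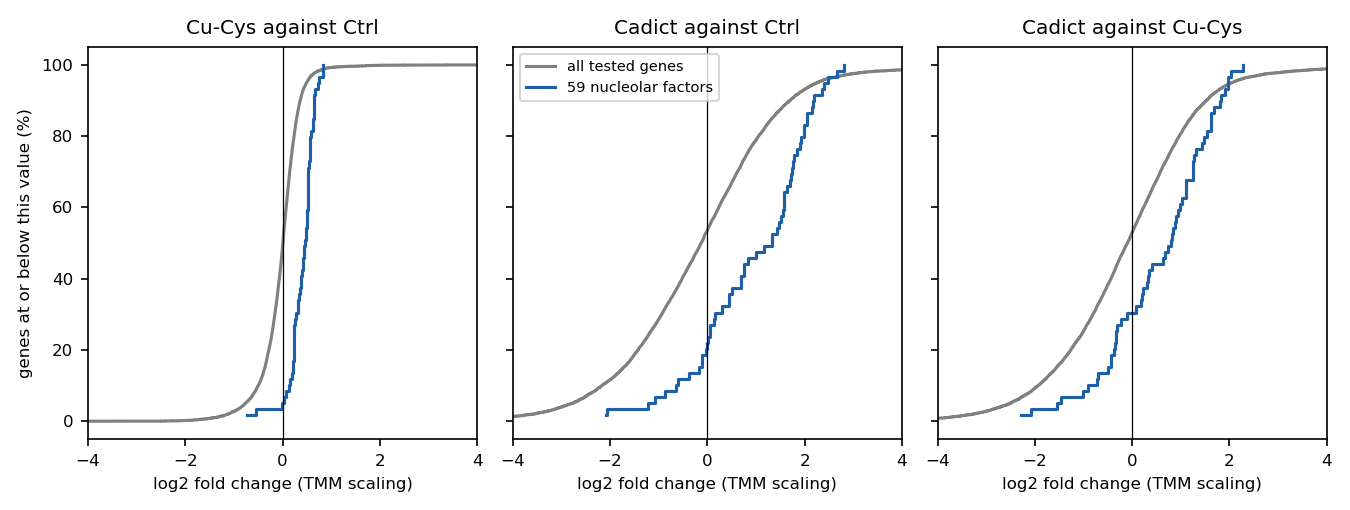
Cumulative share of genes (%) at or below each log2 fold change (TMM scaling) for the 59 factors and for all 11949 tested genes, in each comparison; values beyond ±4 are not drawn. The factors' curve lies to the right of the curve of all genes, except at the upper end of each panel, where all genes reach higher values. The factors' medians are 0.46, 1.32 and 0.81, and with library totals that of the third panel becomes -0.08.

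The rest of the pathway was read from 106 tested genes in 7 lists, also chosen with earlier results of these data known. With Cu-Cys, 88 rose (background 22.6%), 1 fell (background 22.4%) and 0 were called (background 0.167% higher and 1.47% lower). With Cadict against Ctrl, 80 rose (background 40.6%), 20 fell (47.1%), 53 were called higher (20.7%) and 3 lower (27.1%), with a median of 0.96 that became 0.01 with library totals. The 8 Pol I subunits were split, with 2 called higher and 2 lower: Polr1b, the second largest subunit, went from 78.8 ± 2.64 CPM in Ctrl and 108 ± 4.85 CPM in Cu-Cys to 14.1 ± 2.18 CPM in Cadict libraries (-2.48 ± 0.08, adjusted p = 2.65e-13), whereas Polr1d rose by 1.79 ± 0.09. Of 6 Pol I factors, Taf1a, a subunit of the promoter selectivity factor SL1, was the only one called (1.80 ± 0.07).

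Assembly lists beyond the 59 factors held more rises than falls with Cadict, against backgrounds of 20.7% called higher and 27.1% called lower. Among other 40S factors 18 of 26 were called higher and 0 lower, led by the kinase Riok3 (2.53 ± 0.05), which Cu-Cys had left at 0.02 ± 0.05. Among other 60S factors 18 of 34 were called higher and 1 lower, led by the GTPase Gtpbp4 (2.57 ± 0.06), and the 1 called lower was Urb2 (-1.37 ± 0.09). Of the UTP-A and UTP-B subunits 4 of 7 were called higher (Wdr75, 1.42 ± 0.05) and 0 lower. Nucleolar RNA helicases had 6 of 15 called higher (Ddx47, 1.95 ± 0.05) and 0 lower. For snoRNP assembly genes and chaperones it was 4 of 10 (Znhit6, 1.91 ± 0.09) and 0 lower. In these lists 2, 1 and 1 genes fell at an adjusted p of at most 0.05, in that order. So did 2 of the other 40S and 7 of the other 60S factors, against a background of 47.1% at that threshold. With library totals the medians of helicases (-0.54), snoRNP assembly genes (-0.23), Pol I subunits (-0.98) and Pol I factors (-1.23) lay below 0.

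Features of the transcripts were compared with the responses as a description across 58 factors with a GENCODE M21 transcript; genes share libraries and are not independent. The rank correlation of the Cadict log2 fold change with the Ctrl level in TPM was 0.487 for the factors and 0.291 for 11534 tested genes. It was -0.272 and -0.182 with transcript length, -0.208 and -0.123 with GC content, and 0.055 and -0.0172 with the number of exons. With Cu-Cys the values for the Ctrl level were 0.263 and 0.284.

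Some factors share sequence with other genes. Over 10% of the 50-base stretches of the main transcript also occurred in another annotated gene for Fbl (70.4%), Npm1 (40.9%), Nop56 (37.6%), Mrto4 (33.6%) and Pes1 (20.6%), so their counts depend on how shared reads were divided. More than 10% of exonic bases lay in exons on the opposite strand for Nol3, Tsr1 (32.3%), Nop9 (29.9%), Nol7, Rrp7a, Utp14a and Utp23. No source used here gives strand information. Without it, reads from the bases shared by Nop9 and its neighbour Cideb, or by Tsr1 and Srr, cannot be told apart.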

How the data were processed

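The authors deposited 1 table of 16509 genes with expected counts, FPKM, TPM and size-factor-scaled counts for 9 libraries. The expected (estimated) counts were made by the authors without normalization, and the submitters' processing notes name HISAT2 2.1.0, Bowtie2 2.3.4.3, RSEM 1.3.1 and the builds GRCm39 and GRCh38.p13. RSEM assigns reads that match several genes by estimation. TPM values deposited by the authors were used only to compare levels between genes; they sum to 1 total per library, so they carry the composition difference. FPKM, scaled counts and group averages were not used. Columns labelled CTL and CC were assigned to Ctrl and Cu-Cys, and CCGE to Cadict, the last by inference from its components. The labels name a column kit and DNA nanoball sequencing, whereas the series' design names TRIzol and an Illumina instrument.

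Counts were rounded and fitted in R 4.3.3 with edgeR 4.0.16 (filterByExpr, TMM, quasi-likelihood F test, 3 groups in 1 model), and p-values were adjusted by Benjamini-Hochberg over 11949 genes. A gene rose or fell at an adjusted p of at most 0.05, and was called where it also changed 2-fold or more with an adjusted p no higher than 0.001. Every factor is named for Cadict against Ctrl; for the other comparisons the 5 largest rises and falls and 10 core factors (Ncl, Npm1, Fbl, Dkc1, Nop56, Nop58, Bop1, Pes1, Wdr12 and Rrn3) are, and for other lists the largest called rise and fall. The factors and lists were chosen with earlier results of these data known. Alternatives were DESeq2 1.42.0 size factors and Wald test, library totals, 2 other filters, a replicate block and leaving out each library. The procedure was also run on simulated data, in which a small set of genes changed in both directions in Cadict only. Those data held no broad shift in composition, so they cannot decide between the scalings. Replicate numbers were not treated as pairs. Sequences, transcripts and overlaps came from RefSeq (GRCm38.p6) and GENCODE M21 (GRCm38), read in Python 3.11.15, not from the files' build. One marker gene is not reported here.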

Additional observations from a re-analysis of the deposited data

How the results depend on the processing

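Library totals changed the results most. For Cadict against Ctrl they gave 12 members called higher (background 6.93%) and 11 lower (background 51.5%). They left 26 passing downward (background 73.1%) and a median log2 fold change of 0.37. For Cu-Cys against Ctrl they gave 1 passing downward (background 28.9%) and a median of 0.39. For Cadict against Cu-Cys they gave 5 called higher (background 5.76%) and 16 lower (background 47.7%). In the same comparison they gave 22 rising (background 17.3%), 28 falling (background 72%) and a median of -0.078. They turned 14 named values of Cadict against Ctrl (Bop1 -0.90, Bysl -0.50, Dkc1 -0.19, Gnl3 -0.21, Nol11 -0.51, Nol4l -0.80, Nol8 -0.82, Nop10 -0.65, Rrn3 -0.12, Rrp1 -0.26, Rrp36 -0.94, Tsr1 -0.89, Utp3 -0.45 and Utp6 -0.26) and 3 of Cadict against Cu-Cys (Dkc1 -0.65, Nop56 -0.056 and Rrn3 -0.55). They also gave 4 more falls in Cadict against Ctrl (Imp4 -0.96, Rrp8 -1.07, Utp25 -1.07 and Wdr12 -0.99). By construction, library totals make no correction for composition, which lowers every Cadict value by nearly the same amount. Whether that correction is right for these libraries was not tested.

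The members' medians also moved with size factors (1.44 for Cadict against Ctrl and 0.90 for Cadict against Cu-Cys), with DESeq2's Wald test (1.44 and 0.90) and without a filter on low counts (1.24 and 0.72). Leaving out 1 library gave medians of 1.25 to 1.34, 0.43 to 0.47 and 0.74 to 0.81 for Cadict over Ctrl, Cu-Cys over Ctrl and Cadict over Cu-Cys, each Cadict minimum coming without Cadict replicate 2, and 0 to 1 members passing downward for Cu-Cys against Ctrl, the 1 coming without Ctrl replicate 2. The cause of these shifts was not tested. In Cadict against Ctrl, leaving out 1 library gave 31 to 32 members called higher and 3 to 4 lower. In the same comparison Nol8 no longer passed without any 1 library other than Ctrl replicate 3 or Cadict replicate 1 (0.10 to 0.13), Nol3 without Ctrl replicate 1 or 3, any Cu-Cys replicate or Cadict replicate 3 (-0.87 to -0.46), and Nol4 without Cadict replicate 1 (-1.53), as also against Cu-Cys (also -1.53), its lowest values being -6.34 and -6.33 without Cadict replicate 3; Rrp8 passed without Cadict replicate 2 (-0.16) and Utp25 without Cadict replicate 3 (-0.18).

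Replicate numbers are shared by the groups, but same-numbered libraries did not deviate together (residual correlations of -0.19 to 0.15 over 8551 genes). With the replicate block, Nol8 in Cadict against Ctrl was 0.14 with an edgeR adjusted p of 0.0704, and no other named call changed. With a stricter filter on low counts or none, Rrp8 and Utp25 passed downward in Cadict against Ctrl, and Nol8 no longer passed. Low counts limit Nol3, Nol4 and Nol4l.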
